A study of Mus musculus with 16 samples.

Results

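The genes described here encode the machinery of oxidative phosphorylation, measured in organotypic slices of the mouse suprachiasmatic nucleus (SCN), the circadian pacemaker of the hypothalamus. They were taken from the array by gene symbol: names that begin with Ndufa, Ndufb, Ndufc, Ndufs, Ndufv, Uqcr, Atp5 or Cox4 to Cox8, together with Sdha, Sdhb, Sdhc, Sdhd and Cyc1, each represented by the probe with the highest mean signal. This gave 81 of the 10620 named genes among 19893 probes. Of these, 73 encode subunits of the 5 complexes (33 of complex I, 4 of complex II, 8 of complex III, 12 of complex IV and 16 of complex V), 7 are Ndufaf assembly factors that share the prefix but are not subunits, and Ndufs5-ps is listed as a pseudogene. The 81 genes had 112 probes in all, 56 genes having 1 probe and 25 having several.

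Oxidative phosphorylation couples the oxidation of nutrients to the synthesis of ATP at the inner mitochondrial membrane. Complex I (NADH dehydrogenase) and complex II (succinate dehydrogenase) pass electrons to ubiquinone, complex III (cytochrome bc1) passes them to cytochrome c and complex IV (cytochrome c oxidase) to oxygen, and the proton gradient built on the way drives complex V, the ATP synthase. Nuclear genes encode all of the subunits measured here; the mitochondrial genome encodes further core subunits, and of the 13 searched for, 0 had a named probe in the table. Neurons, which fire and restore ion gradients continually, depend heavily on this pathway.

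The study asked how vasoactive intestinal peptide (VIP), the neuropeptide that couples SCN neurons, alters gene expression in the SCN. Slices came from C57BL/6J pups of postnatal day 8 to 11, were kept for 7 days in culture before recording, and were treated at circadian time (CT) 10. There were 4 groups of 4 slices: CT10, untreated and taken at the time of treatment; CT12 VIP, taken 2 h after 1 µM VIP; CT12 Veh, taken 2 h after vehicle (medium); and CT16 VIP, taken 6 h after VIP. The dose is that of the sample labels; the methods of the study name a higher one. Each slice gave 1 Illumina MouseWG-6 array, no source used here ties slices to animals, and p-values therefore measure the spread between slices. No CT16 vehicle group was analysed here, so CT16 VIP slices differ from CT12 slices both in phase and in hours since treatment.

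Between 8019 and 16923 probes were detected per array (detection p of 0.01 or less), and 4 arrays had fewer than 10000 (CT12 VIP 1, CT12 Veh 1, CT16 VIP 3 and CT16 VIP 4). The methods of the study report lower RNA integrity in a few samples than in the rest, without naming them. Of the members, 67 were detected on all 16 arrays and 14 on fewer. The muscle isoforms Cox6a2 and Cox7a1 were each detected on only 1 array and Ndufb11 on 3, so their values lie at background. Of 10 SCN marker genes, 7 had a named probe among those analysed, and all 7 were detected in CT10 slices. The authors had already dropped probes that were not detected, so the detection of these 7 says little. Whether the other markers were dropped as undetected, left unnamed or absent from the array was not examined. Levels are given on the authors' globally normalised, log2-like scale, on which the median probe stood at 7.77 and the members lay between 7.43 (Cox7a1) and 10.78 (Cox6c). Signal depends on the probe as well as on the transcript, so levels are compared between slices and not between genes. In whole slices, fewer cells of a type and less RNA per cell cannot be told apart.

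Promoter sequences are shown for the 1 member past the test, Atp5b, and for the member of each complex with the largest difference 2 h after VIP that had a sequence (Ndufb10, Sdhd, Uqcr10, Cox7b and Atp5k). Each is the RefSeq window of 300 bases on the GRCm38.p6 build, 250 before to 50 after the annotated start of transcription, written 5′ to 3′ on the gene's strand. Capitals mark matches to 4 motifs searched on both strands: the NRF1 core GCGCATGCG, the ETS motif CCGGAAG bound by GABPA, the YY1 motif AAGATGGCG and the cAMP response element TGACGTCA. Capitals thus appear only in Sdhd (ETS, first base 46 bases before the start) and Atp5k (NRF1, first base 50 bases before the start and, on the opposite strand, an overlapping match 49 bases before it, and ETS, first base 12 bases after it), both ETS matches being on the opposite strand.
Atp5b, plus strand, chr10:128083057-128083356: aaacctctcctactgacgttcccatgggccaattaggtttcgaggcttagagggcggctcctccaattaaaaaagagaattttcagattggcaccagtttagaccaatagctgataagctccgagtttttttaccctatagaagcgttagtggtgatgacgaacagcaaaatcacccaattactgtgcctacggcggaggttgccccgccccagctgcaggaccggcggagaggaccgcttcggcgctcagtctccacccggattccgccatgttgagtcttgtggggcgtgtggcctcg
Ndufb10, minus strand, chr17:24724374-24724673: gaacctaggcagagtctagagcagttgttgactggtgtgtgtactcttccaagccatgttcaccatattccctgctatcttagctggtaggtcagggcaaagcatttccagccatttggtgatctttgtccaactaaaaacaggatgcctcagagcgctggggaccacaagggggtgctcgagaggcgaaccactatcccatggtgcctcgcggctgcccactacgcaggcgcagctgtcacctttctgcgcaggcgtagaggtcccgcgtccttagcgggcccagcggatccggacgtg
Sdhd, minus strand, chr9:50603800-50604099: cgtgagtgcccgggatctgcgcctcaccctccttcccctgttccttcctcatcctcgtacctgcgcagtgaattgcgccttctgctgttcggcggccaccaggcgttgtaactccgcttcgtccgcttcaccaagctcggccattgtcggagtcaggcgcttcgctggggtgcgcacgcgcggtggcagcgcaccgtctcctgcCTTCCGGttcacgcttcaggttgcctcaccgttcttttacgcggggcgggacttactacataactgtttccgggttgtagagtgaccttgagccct
Uqcr10, minus strand, chr11:4704295-4704594: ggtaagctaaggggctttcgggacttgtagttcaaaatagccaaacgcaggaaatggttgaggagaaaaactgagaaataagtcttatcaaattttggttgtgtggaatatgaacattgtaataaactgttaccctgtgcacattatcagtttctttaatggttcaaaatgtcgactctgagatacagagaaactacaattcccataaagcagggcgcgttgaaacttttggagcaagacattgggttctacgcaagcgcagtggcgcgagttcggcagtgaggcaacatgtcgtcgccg
Cox7b, plus strand, chrX:106015450-106015749: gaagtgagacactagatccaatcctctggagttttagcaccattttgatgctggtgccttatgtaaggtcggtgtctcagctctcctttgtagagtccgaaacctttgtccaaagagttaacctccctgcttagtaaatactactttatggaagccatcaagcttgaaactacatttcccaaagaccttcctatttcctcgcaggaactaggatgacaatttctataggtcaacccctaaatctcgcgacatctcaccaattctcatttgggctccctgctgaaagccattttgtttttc
Atp5k, minus strand, chr5:108434350-108434649: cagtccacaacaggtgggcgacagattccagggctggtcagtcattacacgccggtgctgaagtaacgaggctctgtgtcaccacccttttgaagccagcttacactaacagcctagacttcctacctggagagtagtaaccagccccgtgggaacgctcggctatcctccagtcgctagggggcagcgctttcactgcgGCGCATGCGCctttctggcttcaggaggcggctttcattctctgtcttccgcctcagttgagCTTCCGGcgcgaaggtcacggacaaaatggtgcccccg

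A window was matched by symbol for 68 of the 81 members, 73 windows in all. NRF1 and GABPA are known activators of nuclear genes for respiratory subunits, and YY1 is a general promoter-binding factor. The NRF1 core was present in 10 of the 73 member windows (13.7%), against 1.75% of all 32851 windows. The ETS motif was present in 18 member windows (24.7%), against 8.86% of all windows, and the YY1 motif in 8 (11%), against 1.4%. The cAMP response element, a motif bound by factors of the CREB, CREM and ATF family, was present in 4 member windows (5.48%), against 1.79% of all windows. Median GC content was 59.0% in member windows and 52.7% in all windows, and a match describes letters, not binding. The 4 genes with the cAMP response element were Ndufa10, Ndufa11, Ndufb2 and Uqcrfs1. In CT12 VIP against CT12 Veh slices, Ndufa10 differed by 0.03 (SE 0.065), Ndufa11 by 0.02 (SE 0.074), Ndufb2 by 0.0 (SE 0.075) and Uqcrfs1 by -0.11 (SE 0.096), all with adjusted p of 0.651 or more (limma).

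**Figure D1:**
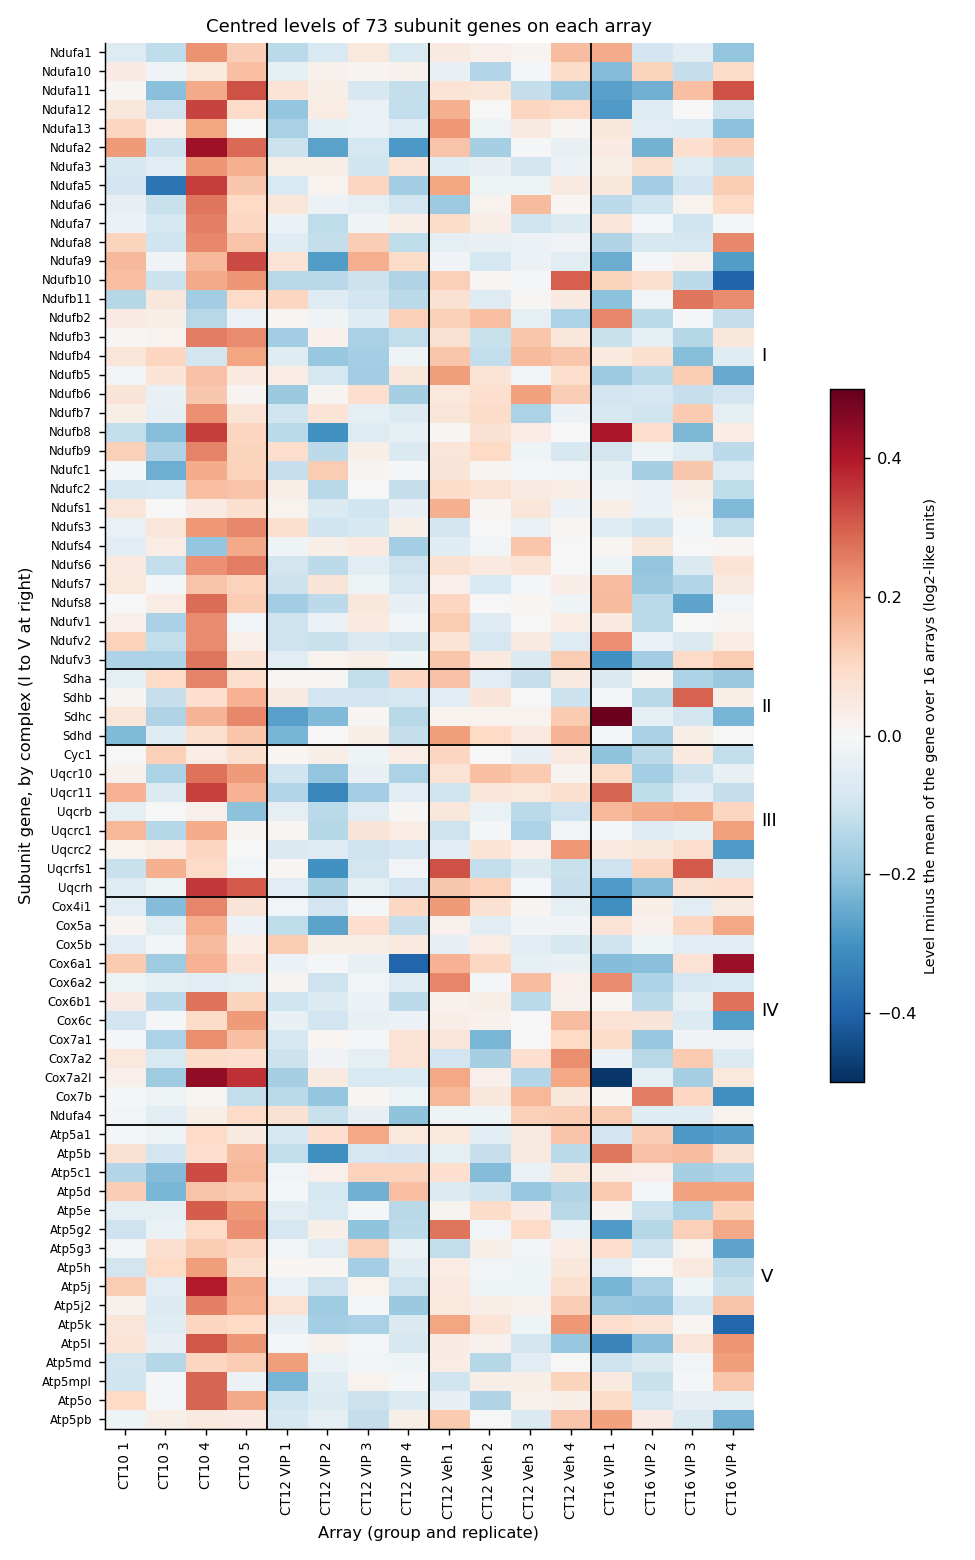
Level of each of the 73 subunit genes (rows, by complex) on each of the 16 arrays (columns), as the difference from the mean of the gene over all arrays in log2-like units; red is above and blue below that mean. CT10 4 is above the mean for most genes, and the CT12 VIP columns are bluer than the CT12 Veh columns.

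The first comparison asked what 2 h of VIP did at matched circadian time. Across the 5 complexes, subunit transcripts had slightly lower levels after VIP than after vehicle, but no single member passed the test. The median difference on the log2-like scale was -0.075 over the 71 subunits measured and -0.071 over all 79 members measured. The largest differences were in the membrane arm subunit Ndufb10 of complex I (-0.24), the small subunit Atp5k of the ATP synthase (-0.22), the complex III subunits Uqcr10 and Uqcr11 (-0.21 each) and the membrane anchors of succinate dehydrogenase, Sdhd (-0.21) and Sdhc (-0.20). The highest was in Ndufaf2, an assembly factor (0.09). Thus 63 of the 79 members (79.7%) lay below 0, against 53.7% of all 17605 probes tested, whose median difference was -0.009. Among the 1797 probes at level 9 or more, the median was -0.024 and 1050 lay below 0.

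With limma and Benjamini-Hochberg adjustment over all 17605 probes, 0 of 79 members were called, where 4.19% of all probes were (2.73% higher and 1.47% lower). With neqc-normalised signals 0 members were called as well, but the share of all probes called there was not counted. Adjusted p in limma was also higher there (Ndufb10, 0.343 against 0.0686), so that count adds little. At an unadjusted p under 0.05, 17 members were lower (21.5%, against 7.75% of all probes) and 0 were higher (against 7.45%). In 12 members (15.2%, against 4.73% of all probes) every CT12 VIP array lay below every CT12 Veh array, and 0 members lay wholly above (against 4.92%). The members are brighter than most probes, and these shares were not counted among probes of like signal. The 95% intervals of all 79 members lay between -0.39 and 0.25. Of the 25 members with several probes, all probes were lower in 18, all were higher in 1 and the probes disagreed in sign in 6. When the probes of a gene were averaged, 1 member passed the test, Uqcr10 (-0.23, adjusted p = 0.0257 in limma).

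**Figure D2:**
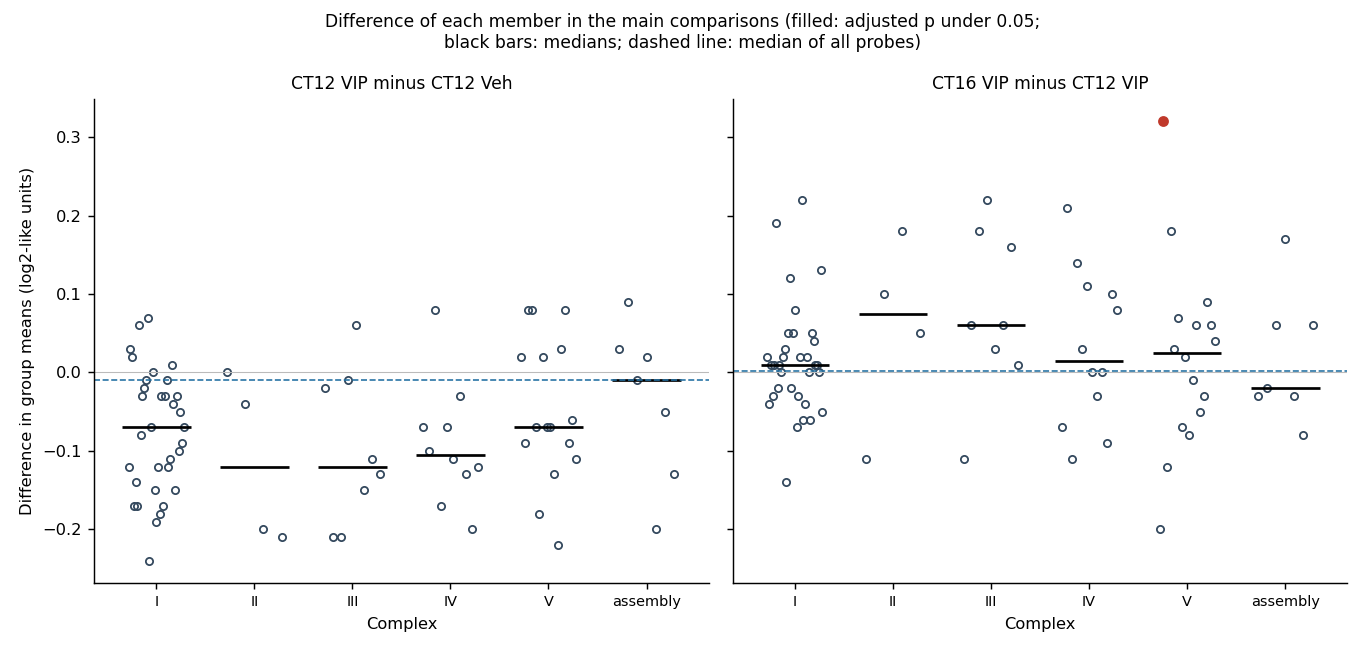
Difference in group means of each member (points, log2-like units) by complex and for the assembly factors, for CT12 VIP minus CT12 Veh (left) and CT16 VIP minus CT12 VIP (right). Black bars are medians, the dashed line is the median of all probes, and the filled point (Atp5b, 0.32) is the only member with an adjusted p under 0.05.

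In complex I the median difference was -0.071 and 28 of 33 subunits lay below 0. All 10 subunits of the N module, which oxidises NADH, were below 0, with a median of -0.080 and a range from -0.17 to -0.02. The subunits assigned here to the membrane arm, which pumps protons, had a median of -0.071 with 15 of 19 below 0. Ndufa9 was counted among them and not in the Q module, a choice that other groupings may not share. The Q module, which reduces ubiquinone, had 3 of 4 below 0 and a median of -0.058. Ndufb10 gave levels of 9.30, 9.30, 9.33 and 9.29 in CT12 VIP slices, against 9.56, 9.45, 9.43 and 9.74 in CT12 Veh slices. All 4 VIP slices lay below all 4 vehicle slices, with the VIP slices almost alike. The difference was -0.24 (SE 0.072, 95% interval -0.39 to -0.09, adjusted p = 0.0686 in limma). Its second probe gave -0.14. Ndufb4, a further membrane arm subunit, was at 9.46, 9.33, 9.35 and 9.5 in CT12 VIP slices and 9.66, 9.40, 9.68 and 9.66 in CT12 Veh slices. CT12 Veh 2 lay low and overlapped the VIP slices, and without that array the difference was -0.26 with an adjusted p of 0.0464 (limma), against -0.19 and 0.190 with it. Ndufb8 differed by -0.17, with no overlap, and Ndufa12 and Ndufa2, accessory subunits of the N module, by -0.17 each, with overlap.

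Complex II had a median of -0.121 over 4 subunits, and its members ranged from -0.21 to 0.0. Sdhd, a membrane anchor, was at 9.54, 9.77, 9.80 and 9.65 in CT12 VIP slices, against 9.98, 9.87, 9.82 and 9.94 in CT12 Veh slices, without overlap. The difference was -0.21 (SE 0.070, 95% interval -0.36 to -0.07, adjusted p = 0.109 in limma). Sdhc, the other anchor, was at 10.29, 10.34, 10.57 and 10.42 in CT12 VIP slices and 10.58, 10.58, 10.58 and 10.69 in CT12 Veh slices. CT12 VIP 3 reached to just under the vehicle slices, and without it the difference was -0.26 with an adjusted p of 0.0458 (limma), against -0.20 and 0.127 with it. Its second probe gave -0.12. The catalytic subunits Sdha (flavoprotein; 0.0, SE 0.072) and Sdhb (iron-sulphur subunit; -0.04, SE 0.065) differed by less than their SE, but the 3 probes of Sdhb ranged from -0.18 to -0.04, so the anchors and the catalytic subunits are not set apart.

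Complex III had a median of -0.12, with 7 of 8 subunits below 0. Uqcr10, a small accessory subunit, was at 9.57, 9.47, 9.63 and 9.51 in CT12 VIP slices, against 9.74, 9.82, 9.80 and 9.68 in CT12 Veh slices. The groups did not overlap, and the difference was -0.21 (SE 0.064, 95% interval -0.35 to -0.08, adjusted p = 0.0685 in limma). Its probes gave between -0.25 and -0.21. Uqcr11, likewise accessory, differed by -0.21 (SE 0.070, adjusted p = 0.126 in limma), with CT12 VIP slices at 9.02, 8.84, 9.0 and 9.11 and CT12 Veh slices at 9.07, 9.23, 9.22 and 9.25, 1 VIP slice overlapping the lowest vehicle slice. The core protein Uqcrc2 differed by -0.15 without overlap, whereas the redox-active subunit Cyc1 (-0.02) and the accessory Uqcrb (-0.01) differed by less than their SE of 0.061 and 0.065.

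Complex IV had a median of -0.101, with 9 of 10 measured subunits below 0. Cox7b was at 10.06, 10.00, 10.20 and 10.17 in CT12 VIP slices, against 10.36, 10.25, 10.36 and 10.25 in CT12 Veh slices, without overlap (difference -0.20, SE 0.067, 95% interval -0.34 to -0.06, adjusted p = 0.122 in limma). Cox6c lay at 10.68 to 10.75 in CT12 VIP slices and 10.78 to 10.93 in CT12 Veh slices, again without overlap, a difference of -0.11 (SE 0.062). Cox5b was above 0 by its brightest probe (0.08, SE 0.061), while its other probe gave -0.13. The common isoforms Cox4i1 (-0.07), Cox6a1 (-0.17), Cox6b1 (-0.07) and Cox7a2 (-0.03), the supercomplex factor Cox7a2l (-0.13) and Ndufa4 (-0.12), first assigned to complex I, all overlapped between the groups. Without CT12 VIP 4, Cox6a1 differed by -0.07.

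Complex V had a median of -0.069 and was mixed, with 10 of 16 subunits below 0. The catalytic F1 head, which makes ATP, had a median of 0.017 and 2 of 5 subunits below 0: the catalytic subunit Atp5b differed by -0.09 (SE 0.068), Atp5a1 by 0.02 (SE 0.071), and Atp5c1 and Atp5d by 0.08 each (SE 0.073 and 0.077). All 4 subunits of the peripheral stalk, which holds the head still, lay between -0.11 and -0.06. Atp5k, subunit e of the membrane part, was at 10.28, 10.15, 10.16 and 10.25 in CT12 VIP slices, against 10.52, 10.39, 10.30 and 10.54 in CT12 Veh slices, without overlap. The difference was -0.22 (SE 0.069, 95% interval -0.37 to -0.08, adjusted p = 0.0831 in limma), and -0.27 with an adjusted p of 0.0456 without CT12 Veh 3. Its other probe gave -0.05. Of the genes for the rotating c ring, Atp5g2 differed by -0.18 (SE 0.076) and Atp5g3 by 0.02 (SE 0.066). Whether the complexes or modules differ from each other was not tested. The 7 Ndufaf assembly factors had a median of -0.007 with 4 below 0, and Ndufaf5 was the lowest (-0.20, SE 0.064, no overlap, adjusted p = 0.0919 in limma). A longer list of other assembly factors, given below, had a median of -0.065, so assembly factors are not set apart from the subunits.

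**Figure D3:**
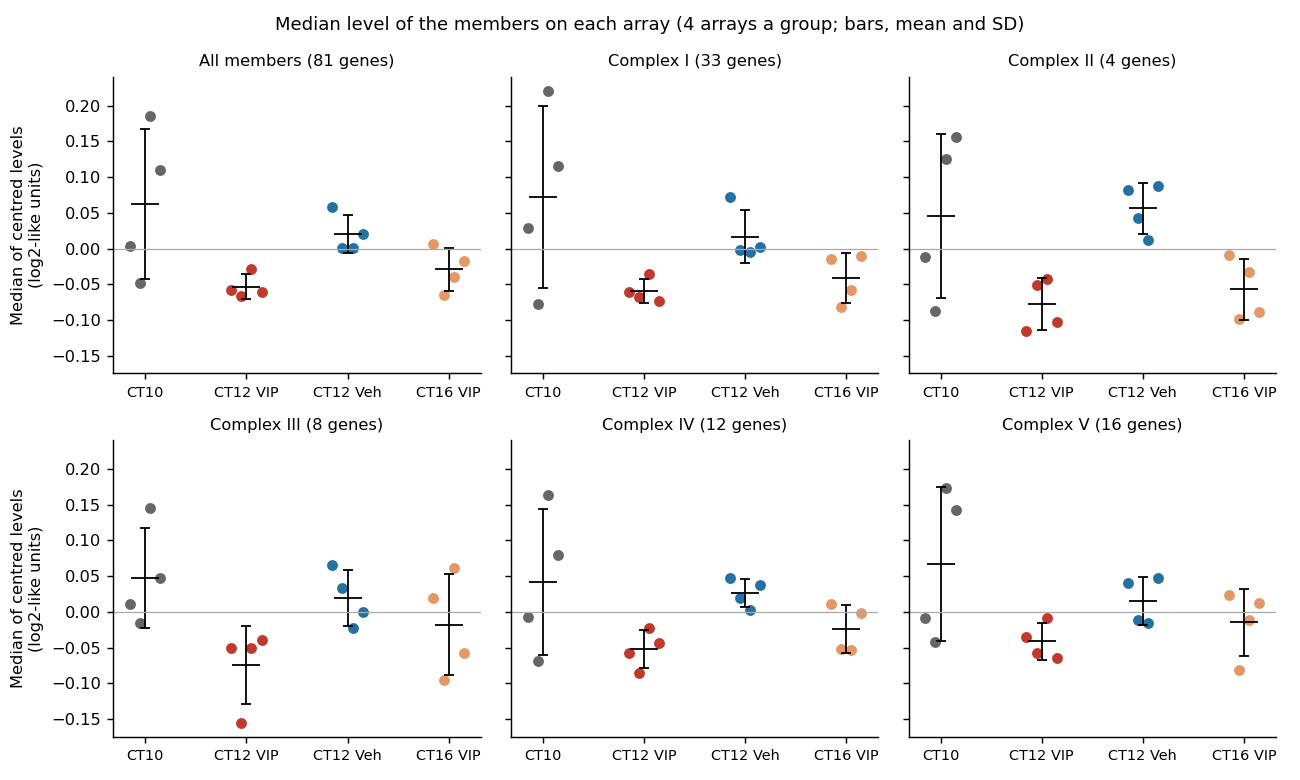
Median of the centred levels (level minus the mean of the gene over 16 arrays, log2-like units) of all members and of each complex on each array; points are arrays and bars the mean and SD of 4 arrays. CT12 VIP arrays lie below all CT12 Veh arrays for all members and for complexes I to IV and overlap with them for complex V, and the CT10 arrays spread from -0.048 to 0.185 for all members.

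The same member values were also summarised array by array, which adds no separate support. The median centred level of all members was -0.058, -0.067, -0.028 and -0.061 on CT12 VIP arrays, against 0.058, 0.001, 0.001 and 0.020 on CT12 Veh arrays. On untreated CT10 arrays alone it spread from -0.048 to 0.185. No VIP array reached the lowest vehicle array, and the same held for complexes I, II, III and IV; in complex V the highest VIP array (-0.008) lay above the lowest vehicle array (-0.016). On the same arrays, the median of all probes lay between -0.012 and 0.0 in CT12 VIP and between -0.003 and 0.004 in CT12 Veh, and that of probes at level 9 or more between -0.016 and 0.004 in CT12 VIP and between 0.012 and 0.020 in CT12 Veh. Probes at level 9 or more thus did not overlap between these groups either, so the separation is not particular to the members. By signal, the 45 members at level 9 or more had a median of -0.105, with 38 below 0, and the 34 under level 9 a median of -0.032, with 25 below 0; the log2-like scale compresses differences at low signal. With only the arrays of 10000 or more detected probes, the median was -0.060 and 0 members were called.

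Over 2628 pairs of subunits, the median correlation of their deviations from the group means across 16 arrays was 0.22, and it was 0.22 both for the 748 pairs within a complex and for the 1880 pairs of different complexes. These deviations share arrays and their normalisation, and the value is a description.

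Among markers of other cell types, those of ependymal cells, which line the third ventricle beside the SCN, differed in this comparison. All 7 ependymal markers were below 0, against 53.7% of all probes, and the median difference was -0.223. Of these, 3 were called lower, against 1.47% of all probes: Dynlrb2 (-0.47), Rarres2 (-0.29) and Tmem212 (-0.26). Their summed raw signal was between 1755.5 and 1975.5 in CT12 VIP slices, against 2057.4 to 2470.2 in CT12 Veh slices. These sums are not normalised, and the median raw signal of the same arrays ran from 91.5 to 129.5. Of the 7 markers, 4 were detected in CT12 VIP and 7 in CT12 Veh. The vehicle slices also lay above CT10 slices in these markers. On neqc-normalised signals the median was 0.378 in CT12 Veh against CT10, with 1 of 7 below 0, against 49.9% of all probes. In CT12 VIP against CT10 it was -0.275, with 6 of 7 below 0, against 53.5% of all probes. None of the 7 was called in these comparisons with CT10. Astrocyte markers had a median of -0.091 with 0 of 8 called, where 4.19% of all probes were called. Neuron markers had a median of 0.042 with 1 of 10 called, Nefl (0.31). Of the other marker lists, Rora (SCN, 0.35) and Pdgfra (fibroblasts and meninges, 0.63) were called. The study names Rora among the clock genes regulated by VIP, so here it is not only a marker of cells. The part of these cells in the result was not tested.

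**Figure D4:**
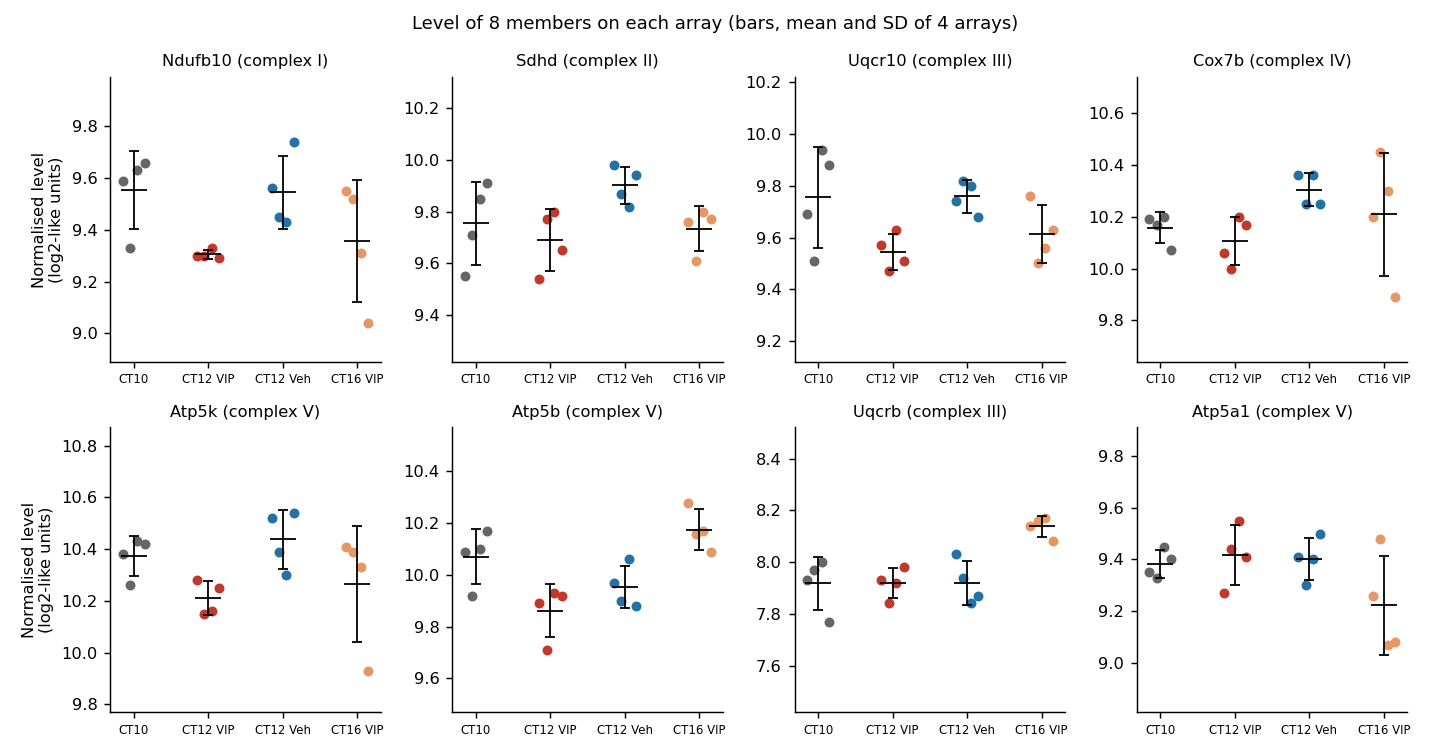
Normalised level (log2-like units) on each array for 8 members, with the mean and SD of 4 arrays. In Ndufb10, Sdhd, Uqcr10, Cox7b and Atp5k the CT12 VIP arrays lie below the CT12 Veh arrays; in Atp5b and Uqcrb the CT16 VIP arrays lie above the CT12 VIP arrays.

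The second comparison followed VIP-treated slices from 2 h to 6 h, and shares the CT12 VIP arrays with the first. Among the members, 1 gene passed the test: Atp5b, the beta subunit of the ATP synthase, whose catalytic sites form ATP, rose. It was at 10.28, 10.16, 10.17 and 10.09 in CT16 VIP slices, against 9.89, 9.71, 9.93 and 9.92 in CT12 VIP slices. All 4 later slices lay above all 4 earlier ones and above the CT12 Veh slices (9.97, 9.90, 10.06 and 9.88), while the CT10 slices (10.09, 9.92, 10.10 and 10.17) overlapped both VIP groups. The difference was 0.32 (SE 0.072, 95% interval 0.16 to 0.47, adjusted p = 0.0413 in limma), and 1 of 81 members was called (1.23%) where 1.79% of all 19110 probes were, 0.832% higher and 0.958% lower. Leaving out 1 array gave differences between 0.27 and 0.34, and the adjusted p was above 0.05 without any of the 4 CT12 VIP arrays (0.0959, 0.152, 0.0863 and 0.0947 for arrays 1 to 4) or without CT16 VIP 1, 2 or 3 (0.058, 0.088 and 0.102), and 0.0363 without CT16 VIP 4. It was 0.393 with neqc normalisation of the raw signals (difference 0.35) and 0.0844 on the arrays with 10000 or more detected probes (0.37). Atp5b has 1 probe.

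The other members did not pass the test. At an unadjusted p under 0.05, 5 members were higher (6.17%, against 5.72% of all probes) and 0 were lower (against 6.72%); 2 lay wholly above the earlier slices (against 3.53%) and 1 wholly below (against 4.29%). The median over 81 members was 0.015, against 0.002 over all probes, and 31 members (38.3%) lay below 0, against 49.4% of all probes. Complex II had a median of 0.075, complex III 0.060, complex V 0.024, and complexes I and IV 0.014 each. The 95% intervals of all members lay between -0.40 and 0.47.

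Uqcrb, a complex III subunit, was at 8.14, 8.16, 8.17 and 8.08 in CT16 VIP slices, against 7.93, 7.84, 7.92 and 7.98 in CT12 VIP slices. The groups did not overlap, and CT16 VIP slices also lay above all CT12 Veh slices (7.84 to 8.03) and CT10 slices (7.77 to 8.0); the difference from CT12 VIP was 0.22 (SE 0.064, 95% interval 0.08 to 0.35, adjusted p = 0.128 in limma). Cox5a (0.21), Ndufa2 (0.19) and the assembly factor Ndufaf4 (0.17) were the other members with an unadjusted p under 0.05. Ndufb8 (0.22), Uqcr11 (0.18) and Sdhc (0.18) were higher on average but overlapped between the groups. In all 3 the value rested on CT16 VIP 1: without it the differences were 0.10 in Ndufb8, 0.08 in Uqcr11 and 0.03 in Sdhc, whose other probe gave -0.06. In Sdhc that array was at 11.05, with the other CT16 VIP arrays at 10.33 to 10.51. Within the F1 head the catalytic pair differed in sign: Atp5a1, the alpha subunit, was at 9.26, 9.48, 9.07 and 9.08 in CT16 VIP slices and 9.27, 9.44, 9.55 and 9.41 in CT12 VIP slices, a difference of -0.20 (SE 0.095, adjusted p = 0.425 in limma) in which CT16 VIP 3 and 4, both among the arrays with few detected probes, were lowest. Sdha differed by -0.11 (-0.07 without CT12 VIP 4). Cox6a1 differed by 0.14, but by 0.0 without CT16 VIP 4, 0.05 without CT12 VIP 4 and 0.22 without CT16 VIP 1 or 2. Of the 5 members shown above with the largest 2 h difference of their complex, the CT16 VIP arrays overlapped both CT12 groups in Ndufb10 (9.04 to 9.55), Uqcr10 (9.5 to 9.76), Cox7b (9.89 to 10.45) and Atp5k (9.93 to 10.41), and Sdhd lay at 9.61 to 9.80, under the lowest CT12 Veh slice (9.82).

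The 4 remaining comparisons used neqc-normalised raw signals, whose differences are on a true log2 scale and have wider errors, and each shares its groups with the comparisons above. The median SE of the members was 0.17 in CT16 VIP against CT12 Veh, 0.15 in CT12 VIP against CT10, 0.18 in CT16 VIP against CT10 and 0.14 in CT12 Veh against CT10, where it was 0.068 and 0.079 in the first and second comparisons, so differences of the size seen there would not be detectable and a count of 0 called says little about them. In CT16 VIP against CT12 Veh slices, 0 of 81 members were called by limma, where 2.21% of all probes were, the median was -0.082 (all probes, -0.024), and 60 members (74.1%) lay below 0, against 53.7% of all probes. At an unadjusted p under 0.05, 3 members were higher (3.7%, against 5.94% of all probes), Ndufaf4 (0.57), Uqcrb (0.51) and the F1 subunit Atp5d (0.41), and 1 was lower (1.23%, against 7.95%), Ndufaf5 (-0.41). In CT12 VIP against CT10 slices, 0 of 79 were called by limma, where 2.57% of all probes were, the median was -0.172 (all probes, -0.023), or -0.100 on the authors' global values, and 70 members (88.6%) lay below 0, against 53.5% of all probes. At an unadjusted p under 0.05, 4 members were lower (5.06%, against 5.83% of all probes), Ndufa2 (-0.50), Uqcr11 (-0.42), Ndufb3 (-0.37) and the peripheral stalk subunit Atp5o (-0.32), and 0 were higher (against 7.78%). In CT16 VIP against CT10 slices, 0 of 81 were called by limma, where 2.37% of all probes were, with a median of -0.124 and 67 members (82.7%) below 0, against 53.1% of all probes. At an unadjusted p under 0.05 there were 2 higher (2.47%, against 6.1% of all probes), Uqcrb (0.54) and Ndufaf4 (0.53), and 3 lower (3.7%, against 7.86%), Ndufs3 (-0.50), Cyc1 (-0.50) and Ndufa9 (-0.45).

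CT12 Veh slices had the smallest of the 3 median differences from CT10 slices. In CT12 Veh against CT10 slices, 0 of 79 members were called by limma, where 0.0% of all 16847 probes were, and the median was -0.056, or -0.034 on the global values, with 50 members (63.3%) below 0, against 49.9% of all probes. At an unadjusted p under 0.05, 1 member was higher (1.27%, against 3.37% of all probes), Ndufaf7 (0.39), and 1 was lower (1.27%, against 3.34%), Ndufaf2 (-0.31). The comparisons with CT10 rest on uneven baseline slices: the median centred level of all members was 0.004, -0.048, 0.185 and 0.110 on CT10 1, 3, 4 and 5. CT10 4 and 5 lay above every array of the other groups and CT10 3 below every CT12 Veh array. Without CT10 4, the median difference was -0.005 for CT12 Veh, -0.108 for CT12 VIP and -0.089 for CT16 VIP, each against CT10.

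Other genes of mitochondrial energy metabolism were described from lists of genes. The mitochondrial ribosome, which translates the subunits encoded in mitochondrial DNA, gave a median of -0.085 in CT12 VIP against CT12 Veh slices, with 55 of 70 genes below 0 and 1 called lower (Mrps34, -0.24), and 0.070 in CT16 VIP against CT12 VIP slices, with 53 of 73 above 0 and 1 called higher (Mrps6, 0.48). These comparisons share the CT12 VIP arrays with opposite sign, so the fall and the rise are not independent. In CT16 VIP against CT12 Veh slices, on neqc-normalised signals, the median was -0.027 (all probes, -0.024), with 40 of 72 genes below 0. A list of 30 other tested respiratory chain assembly factors had a median of -0.065 at 2 h, with 24 below 0 and 1 called lower, Cox14 (-0.26), a factor for complex IV. The tricarboxylic acid cycle had a median of -0.018 over 21 genes, with 1 called lower, Suclg1 (-0.28), a subunit of succinate-CoA ligase. Glycolysis, the cytosolic route to ATP, had a median of 0.066 over 17 genes, with 0 called. In CT12 VIP against CT12 Veh slices, 2.73% of all probes were called higher and 1.47% lower. In CT16 VIP against CT12 VIP slices the shares were 0.832% higher and 0.958% lower. A single call in lists of this size thus says little about the list.

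Single genes of further lists (biogenesis regulators, coenzyme Q, carriers and glycolysis) also passed the test, most of them against the median of their list. The biogenesis regulators had a median of -0.046 in CT12 VIP against CT12 Veh slices, with 9 of 13 below 0, and of 0.049 in CT16 VIP against CT12 VIP slices, with 11 of 14 above 0. Here too the comparisons share the CT12 VIP arrays, so opposite signs in them are not independent. Ppargc1a, which encodes the transcriptional coactivator PGC-1alpha of mitochondrial biogenesis, rose by 0.23 in CT12 VIP against CT12 Veh slices (adjusted p = 0.0484 in limma) and fell by 0.50 in CT16 VIP against CT12 VIP slices (adjusted p = 0.00237). Coq10b, a coenzyme Q-binding protein, rose by 0.68 at 2 h (adjusted p = 0.000248) and fell by 0.51 between 2 h and 6 h (adjusted p = 0.013), where its list had medians of -0.023 over 14 genes and 0.002 over 15. Slc25a3, the mitochondrial phosphate carrier that supplies the ATP synthase, rose by 0.32 at 2 h (adjusted p = 0.013), where the 11 carriers and porins had a median of -0.031. Eno2, the neuronal enolase of glycolysis, fell by 0.33 between 2 h and 6 h (adjusted p = 0.0327), where the 17 glycolysis genes had a median of -0.049. In each of these lists 1 gene was called in the comparisons given, which beside the shares of all probes given above says little about the list. Calls of list genes are given for the main setting only, and how they fare under the alternatives is not reported here.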

How the data were processed

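The values began as biotin-labelled cDNA, amplified from total RNA of 16 slices and hybridised to MouseWG-6 v2 BeadChips. The authors deposited raw probe intensity (mean bead signal, not normalised), its detection p-value against negative control probes, and log2-like values. To make the last, the authors used lumi (version not given in the sources used here) to drop probes not detected at p 0.01, applied a variance-stabilising transformation and quantile-normalised, once for each of the first pairs of groups compared and once over all arrays. Such values compress differences at low signal.

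Probes were named through Entrez, accession or symbol tables, 3160 of 19893 staying unnamed. Levels per array are the authors' global values. CT12 VIP against CT12 Veh and CT16 VIP against CT12 VIP were tested on the authors' tables for those pairs; the other 4 comparisons on neqc-normalised intensities of probes detected at p 0.01 on at least 1 array. Each was fitted with limma 3.58.1 in R 4.3.3, without covariates, and adjusted (Benjamini-Hochberg) over all probes at 0.05. The fit was tested on simulated data with 200 changed probes. Alternatives were neqc, global values, log2 quantile normalisation, other detection filters, all arrays in 1 fit, a replicate block, the mean of a gene's probes and leaving out each array; arrays with 10000 or more detected probes were chosen after seeing the data.

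The members, lists and tests were chosen with earlier results of these data known. Members to be named were those past the test, the largest 2 differences and the highest and lowest level per complex, isoform sets, the 4 subunits of complex II and up to 3 called genes of each other list; others named were chosen after their values were seen. The NRF1 motif is a 9-base core, shortened from a 10-base form after matches of that form had been counted. The 6 h slices are placed at CT16 by the sample labels and at CT12 by the design text of the series; CT16 was used. The sources used here give no slide or scan batch.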

Additional observations from a re-analysis of the deposited data

Results flagged for a closer look

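Within groups of 4 arrays, a value was singled out when its gap to the nearest other array took up most of the range of the group. Of 144 groups examined, 11 had such a value, and chance gives about 1 in 20. For the complexes, the median centred level of complex I was 0.072 on CT12 Veh 1, above the other vehicle arrays, and that of complex III was -0.156 on CT12 VIP 2, below the other CT12 VIP arrays.

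For single members, the level of Atp5k was 9.93 on CT16 VIP 4, that of Cox6a1 was 8.93 on CT12 VIP 4, that of Cox6b1 was 10.08 on CT12 Veh 3 and that of Cox6c was 10.68 on CT12 VIP 2, each below the other arrays of its group. Ndufb4 stood low at 9.40 on CT12 Veh 2, and Uqcr11 low at 9.07 on CT12 Veh 1. High values were those of Sdhb on CT12 VIP 1 (8.05), Sdhc on CT12 Veh 4 (10.69) and Uqcr11 on CT16 VIP 1 (9.46). CT12 VIP 1, CT12 Veh 1 and CT16 VIP 4 were among the 4 arrays with fewer than 10000 detected probes; whether this bears on the values was not tested.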

How the results depend on the processing

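In CT12 VIP against CT12 Veh, 1 member was called with the mean of the probes of a gene (Uqcr10) and 0 to 1 without single arrays. The median difference was -0.089 to -0.064 without single arrays, -0.092 with neqc and -0.060 on the arrays with 10000 or more detected probes. In CT16 VIP against CT12 VIP, 0 members were called with neqc, with or without the detection filter (the unfiltered setting also used neqc, so the filter alone was not tried), log2 quantile normalisation, the replicate block (Atp5b, adjusted p = 0.136 in limma) or arrays with 10000 or more detected probes, and 0 to 1 without single arrays (median 0.007 to 0.032, and 0.002 on the better-detected arrays). On those better-detected arrays Cox6a1 turned to -0.06 in CT16 VIP against CT12 VIP. The median in CT16 VIP against CT12 Veh was -0.047 on global values and in the fit of all 16 arrays, -0.041 on the better-detected arrays and -0.117 to -0.066 without single arrays. With all 16 arrays in 1 fit, 1 member was called in CT12 VIP against CT10 (Ndufa2, -0.39, adjusted p = 0.037) and 2 in CT16 VIP against CT10 (Atp5j, -0.30, adjusted p = 0.0213; Uqcrb, 0.22, adjusted p = 0.039; limma). The medians against CT10 without single arrays ran from -0.098 to -0.005 (CT12 Veh), -0.227 to -0.108 (CT12 VIP) and -0.197 to -0.089 (CT16 VIP). On global values and in the fit of all 16 arrays they were -0.034 (CT12 Veh), -0.100 (CT12 VIP) and -0.087 (CT16 VIP), and with the replicate block -0.016 (CT12 Veh), -0.128 (CT12 VIP) and -0.094 (CT16 VIP). Without single arrays, 0 members were called in each of the remaining 4 comparisons (limma). The share of all probes called under each alternative was not counted, so these counts of members have no yardstick. All counts and medians under the alternatives, those above included, were compared with the main ones. Of these, 174 kept their count or moved by less than the SD between arrays, and 22 did not. For all members that SD was 0.105 over the CT10 arrays, more than the size of the CT12 Veh against CT10 median (-0.056). For such medians the rule could hardly register a move, so the tally does not measure stability. The replicate block changed no other call (same-numbered slices share only a number, their deviations correlating at -0.34 to 0.27). The causes of the moves were not tested. Dim probes, 14 members being undetected on at least 1 array, limit what small differences can show.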
